A study of Mus musculus with 6 samples.

Results

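The genes of the glycolytic enzymes that turn glucose 6-phosphate into pyruvate were examined in GC-2spd cells kept at low oxygen. The members were chosen by name, step by step along the pathway, and were 10 of the 43412 annotated gene symbols: Gpi1, Aldoa, Aldoc, Tpi1, Gapdh, Pgk1, Pgam1, Eno1, Eno2 and Pkm. GC-2spd is a mouse line named for spermatids and made from spermatocytes with a viral large T antigen, and the labels give it a C57BL/6J background and testis as tissue. Poly(A) RNA was sequenced from 3 libraries of hypoxia-treated cells at 1% oxygen and from 3 libraries of normoxic cells at 21% oxygen, both grown in the same serum-containing medium with the same level of carbon dioxide. The labels name no other treatment or genetic change in either group. They give neither the time at low oxygen nor the number of cultures behind the 3 libraries of each group, so p-values measure the spread between these libraries, which may be technical.

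Glycolysis splits a 6-carbon sugar phosphate into triose phosphates and oxidizes these to pyruvate, which yields ATP and NADH without oxygen. Glucose-6-phosphate isomerase and aldolase prepare and cut the sugar, triose phosphate isomerase interconverts the products, and glyceraldehyde-3-phosphate dehydrogenase, phosphoglycerate kinase, phosphoglycerate mutase, enolase and pyruvate kinase carry the triose on to pyruvate. In mammalian cells many of these genes are known targets of the hypoxia-inducible factor HIF-1, which binds a short core, ACGTG or GCGTG, in hypoxia response elements. Aldolase and enolase each have several isoenzymes, of which Aldoc and Eno2 are the forms known from brain and neurons, and male germ cells are known for isoenzymes of their own at several steps.

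Promoter windows of the members were read for these cores, because the members moved together in the libraries. All 10 members matched RefSeq entries (GRCm38.p6), with 16 windows of 300 bases that run from 250 bases before to 50 bases after a transcript start. Both cores were searched on both strands, so that a palindromic CACGTG would count on each, and none of the member windows held one. At least 1 match lay in 11 of the 16 windows and in 7 of the 10 genes, against 43.8% of 32851 windows and 46.7% of 27025 genes of the whole table. Windows of the same gene can overlap and hold the same match, as those of Aldoa and Eno1 did. Members also had more windows per gene (16 for 10 genes) than the whole table (32851 for 27025), which gives a member more bases to match. Matches numbered 3 or more in 3 member windows, those of Gapdh, Pgam1 and the upstream Aldoc start, against 8.93% of all windows. No window of Gpi1, Tpi1 or Eno2 held a match. A match is a string of letters in this window and not a measured binding site. The windows below are the 3 with the most matches each, that of Pgk1, and those of Tpi1 and Gpi1, which had none although Gpi1 was among the members with the largest difference and Tpi1 had the smallest. Sequences run 5′ to 3′ on the gene's strand, and capitals mark each match (CACGT and CACGC are the cores read from the other strand).
Aldoc (chr11:78322823-78323122, plus strand): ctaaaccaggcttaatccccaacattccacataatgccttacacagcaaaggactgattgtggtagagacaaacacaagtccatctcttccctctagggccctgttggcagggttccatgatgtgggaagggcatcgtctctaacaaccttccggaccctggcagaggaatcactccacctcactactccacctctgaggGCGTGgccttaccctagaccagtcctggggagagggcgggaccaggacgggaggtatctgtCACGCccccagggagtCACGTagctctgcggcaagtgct
Gapdh (chr6:125165724-125166023, minus strand): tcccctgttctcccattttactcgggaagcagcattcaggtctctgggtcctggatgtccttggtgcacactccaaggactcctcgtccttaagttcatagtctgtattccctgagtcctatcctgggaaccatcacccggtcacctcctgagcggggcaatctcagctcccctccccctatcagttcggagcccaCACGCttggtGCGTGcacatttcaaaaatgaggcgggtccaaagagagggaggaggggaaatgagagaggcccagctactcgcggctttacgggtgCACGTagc
Pgam1 (chr19:41911621-41911920, plus strand): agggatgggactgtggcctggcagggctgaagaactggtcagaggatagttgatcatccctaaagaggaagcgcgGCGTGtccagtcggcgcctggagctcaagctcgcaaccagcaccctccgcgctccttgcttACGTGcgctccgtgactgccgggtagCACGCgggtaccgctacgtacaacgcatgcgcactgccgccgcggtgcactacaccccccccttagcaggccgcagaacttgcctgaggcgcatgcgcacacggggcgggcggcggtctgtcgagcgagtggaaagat
Pgk1 (chrX:106186850-106187149, plus strand): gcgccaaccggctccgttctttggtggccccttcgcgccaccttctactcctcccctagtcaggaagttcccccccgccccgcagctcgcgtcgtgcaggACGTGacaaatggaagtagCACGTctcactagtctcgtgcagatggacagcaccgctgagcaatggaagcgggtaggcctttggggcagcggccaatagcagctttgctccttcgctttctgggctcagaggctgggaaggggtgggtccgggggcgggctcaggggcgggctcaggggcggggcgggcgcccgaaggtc
Tpi1 (chr6:124814109-124814408, minus strand): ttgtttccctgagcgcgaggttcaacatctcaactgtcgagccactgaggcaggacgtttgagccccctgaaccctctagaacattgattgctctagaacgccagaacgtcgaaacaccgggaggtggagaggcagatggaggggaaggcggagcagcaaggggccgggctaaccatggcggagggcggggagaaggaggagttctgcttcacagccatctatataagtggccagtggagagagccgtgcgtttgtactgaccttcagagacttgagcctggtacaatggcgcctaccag
Gpi1 (chr7:34230287-34230586, minus strand): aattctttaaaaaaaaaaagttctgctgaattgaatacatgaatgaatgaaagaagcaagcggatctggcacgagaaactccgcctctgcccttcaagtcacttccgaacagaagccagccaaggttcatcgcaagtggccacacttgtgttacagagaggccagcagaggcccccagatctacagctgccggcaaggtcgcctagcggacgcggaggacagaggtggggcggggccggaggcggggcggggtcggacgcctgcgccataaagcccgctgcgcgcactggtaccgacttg
The Pgk1 window held 2 ACGTG cores on opposite strands, at positions -150 and -131 from the start. In the Gapdh window 2 GCGTG cores on opposite strands lay at -54 and -44, and an ACGTG core lay at 43 downstream of the start. The Pgam1 matches at -175, -114 and -88 were all upstream of its start, whereas the upstream Aldoc window had matches at -50, 12 and 28. A match in Aldoa was found only in the windows of its downstream starts, at -126 and -202, which are the same bases counted from neighbouring starts, and in Pkm only in the window of its downstream start, at -75 and 9. The Eno1 windows had GCGTG and no ACGTG. Its matches at -86 and -62 are the same bases as those at -113 and -89, counted from neighbouring starts.

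All 10 genes were tested and all 10 were higher in hypoxia-treated cells, and in none did the groups overlap. Across all 13749 genes tested (those whose TPM averaged 1 or more), 17.9% were called higher, 36.1% lower and 54% in either direction by limma on log2(TPM + 1) with a Benjamini-Hochberg adjusted p under 0.05. In 21.4% of tested genes the groups did not overlap with hypoxia higher. TPM is the share of a gene among the transcripts of its library, corrected for transcript length, and the log2 fold changes below are differences of log2(TPM + 1), hypoxia over normoxia, with standard errors (SE). The log2 fold changes of the members ran from 0.61 to 1.86 with a median of 1.37, and the median of all genes tested was -0.13. Of the 10 members 7 were called higher with a log2 fold change of at least 1, as were 2.73% of all tested genes. When libraries were rescaled by median ratios, the median of all genes moved to 0.0014 and 3603 genes were higher and 3622 lower, in place of 2463 higher and 4967 lower, and the 10 members remained higher. In bulk RNA a larger share of cells with high expression and more RNA per cell cannot be told apart.

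**Figure D1:**
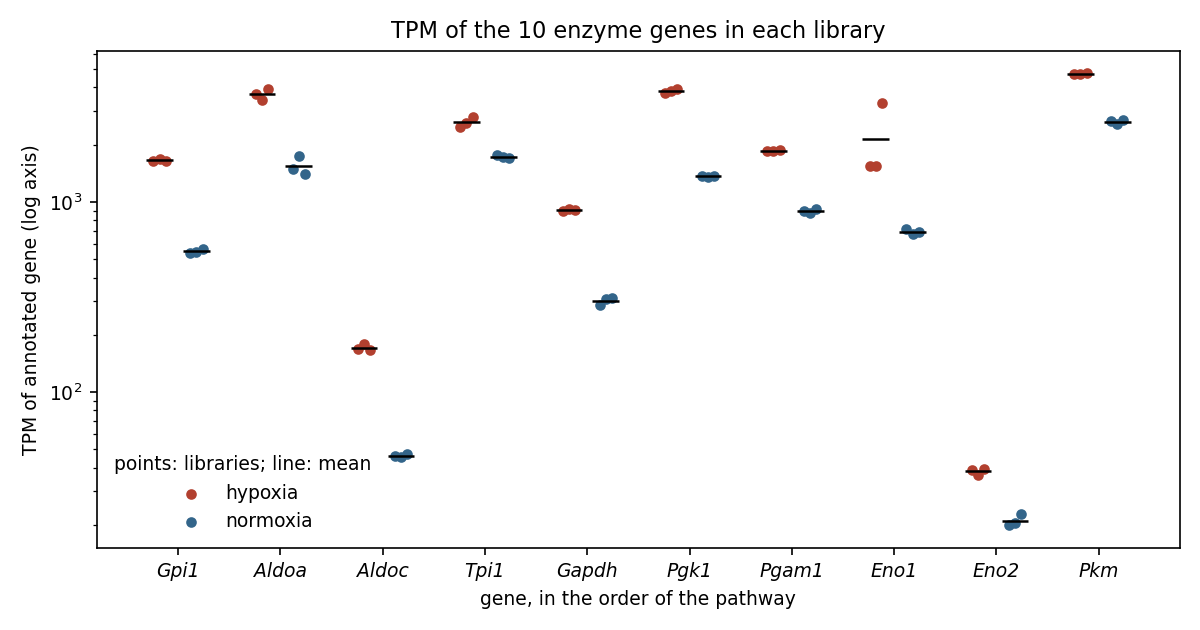
TPM of each enzyme gene (log axis) in the 3 hypoxia (left, red) and 3 normoxia (right, blue) libraries, one point a library and a line at the mean, in pathway order. Every red point lies above every blue point of its gene, and 1 hypoxia library of Eno1 stands apart at 3309 TPM.

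The isomerase gene Gpi1 (ENSMUSG00000036427, chr7:34202122-34230289, minus strand, mm10), whose protein turns glucose 6-phosphate into fructose 6-phosphate, had 1643, 1673 and 1640.3 TPM in hypoxia-treated cells, against 537, 545 and 566 TPM in normoxic cells. The groups were far apart and tight, with means of 1652 ± 17.9 and 549 ± 14.9 TPM (SD, n = 3 each), a ratio of 3.01. The log2 fold change was 1.59 ± 0.03 (SE, limma adjusted p = 1.12e-06). An antisense gene inside Gpi1, Gm26762, shares 5482 bases with it and had 10.2 to 10.6 TPM in hypoxia against 2.32 to 2.82 TPM in normoxia. Whether reads were assigned by strand is not given in the sources used here, so reads of this pair may be mixed.

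Aldolase cuts fructose 1,6-bisphosphate into triose phosphates. Aldoa (ENSMUSG00000030695, chr7:126795234-126800751, minus strand), the ubiquitous form, had 3674, 3440.4 and 3933 TPM in hypoxia-treated cells, against 1498, 1741 and 1405 TPM in normoxic cells. This was the member with the widest relative spread after Eno1, at 3682 ± 246 TPM in hypoxia and 1548 ± 174 TPM in normoxia, and its log2 fold change was 1.25 ± 0.09 (SE, limma adjusted p = 5.16e-05). The read depth over the gene was tighter, at 712 ± 11.6 in hypoxia and 347 ± 8.85 in normoxia per gigabase of aligned bases, a ratio of 2.05, against a ratio of 2.38 in TPM. Aldoc (ENSMUSG00000017390, chr11:78322968-78327781, plus strand) had 168, 178 and 165 TPM in hypoxia-treated cells, against 46.0, 45.5 and 47.1 TPM in normoxic cells. It had the largest difference of the 10 members, with a log2 fold change of 1.86 ± 0.05 (SE, limma adjusted p = 1.42e-06) and a ratio of means of 3.69.

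Aldoc remained the minor form. It made up 4.37%, 4.92% and 4.04% of the summed Aldoa and Aldoc TPM in hypoxia-treated cells, against 2.98%, 2.54% and 3.24% in normoxic cells. The groups did not overlap, with means of 4.44% ± 0.45 and 2.92% ± 0.35 (SD, n = 3 each), and the exact permutation test (2-sided) gave p = 0.1, the smallest that 3 against 3 libraries allow. The difference of 1.52 percentage points was 2.83 with assembled loci, where the Aldoc locus of the second hypoxia library extends upstream of the gene. Over the 9 ratios tested in the same way, all gave this p, and the adjusted p was 0.1 for each, so none passed 0.05. The open reading frames of Aldoa and Aldoc were 77.8% identical over 999 aligned bases, below the 95% used here to call a copy near-identical.

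Tpi1 (ENSMUSG00000023456, chr6:124810586-124814296, minus strand), triose phosphate isomerase, had 2474, 2609.9 and 2803 TPM in hypoxia-treated cells, against 1755, 1717 and 1702 TPM in normoxic cells. The groups did not overlap, yet this was the smallest difference of the members, with a log2 fold change of 0.61 ± 0.05 (SE, limma adjusted p = 9.99e-05) and a ratio of means of 1.52. Its gene overlaps Spsb2 on the other strand by 34 bases. Spsb2 was lower, at 14.2 to 15.2 TPM in hypoxia against 23.3 to 27.4 TPM in normoxia.

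Gapdh (ENSMUSG00000057666, chr6:125161715-125166467, minus strand) encodes the dehydrogenase that makes 1,3-bisphosphoglycerate and NADH. Its gene row had 899.7, 919 and 910.0 TPM in hypoxia-treated cells, against 287, 308 and 313 TPM in normoxic cells. The log2 fold change was 1.58 ± 0.04 (SE, limma adjusted p = 1.55e-06), with no overlap of the groups. The gene row is a small part of the Gapdh signal in these tables. A search of the Gapdh open reading frame found 64 annotated genes, nearly all processed pseudogenes, that match it at 95% identity or more over at least 80% of its length. Their summed TPM was 22767, 23535 and 21834 in hypoxia-treated cells, against 8207, 7986 and 8238 in normoxic cells, so that the gene row held 3.8% to 4.0% of the sum of gene and copies in hypoxia and 3.4% to 3.7% in normoxia. Gm7336 alone, whose match is 100% identical, had 5448, 5788 and 5440.0 TPM in hypoxia against 1893, 1919.9 and 1972 TPM in normoxia. Of the 64 copies, 35 reached a mean of 1 TPM, and all 35 were called higher, with log2 fold changes of 0.72 to 1.53. Gene and copies summed gave 23622 ± 855 TPM in hypoxia and 8446 ± 135 TPM in normoxia (SD, n = 3 each), a ratio of 2.80. The files hold no counts of reads with several matches, and which of these rows the reads came from was not tested. The same holds for the copies of Pgk1, Pgam1 and Eno1 below.

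**Figure D2:**
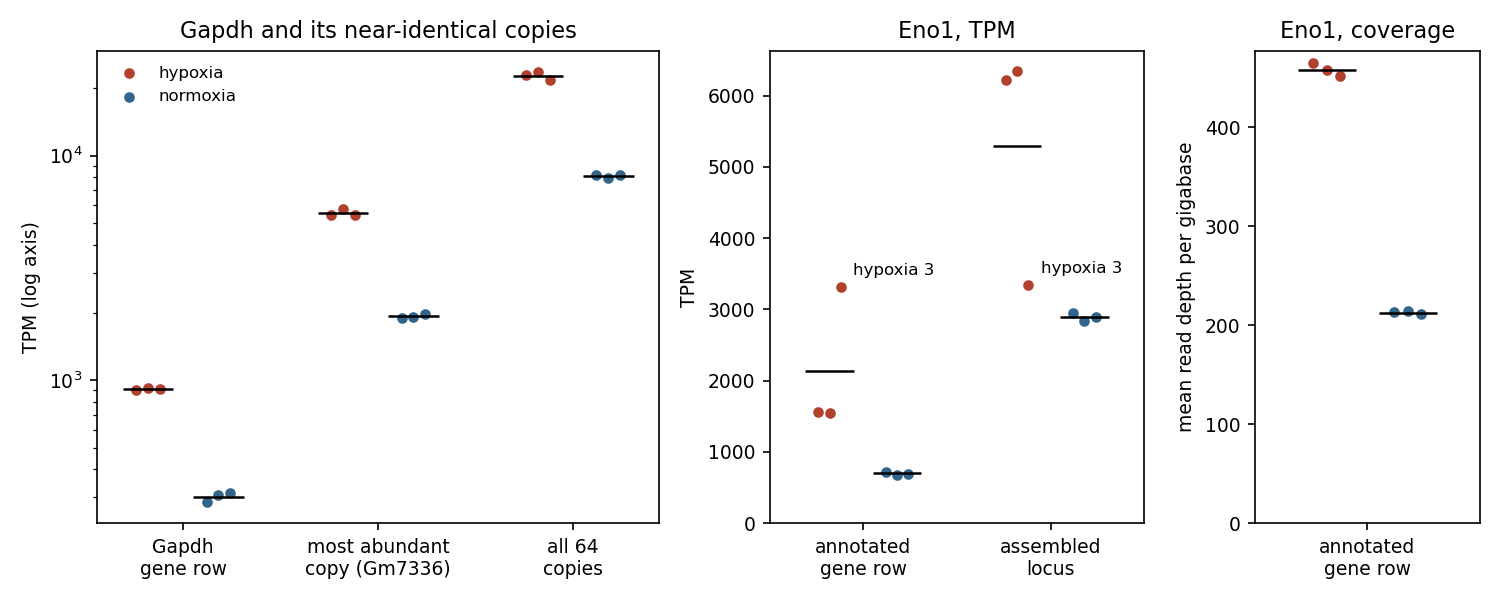
Left, TPM (log axis) of the Gapdh gene row, of its most abundant copy and of all 64 copies summed; middle, Eno1 TPM of the annotated gene row and of the assembled locus; right, Eno1 read depth per gigabase. Points are libraries, hypoxia left in red and normoxia right in blue, with lines at the means. All Gapdh quantities were higher in hypoxia, and the Eno1 value of the third hypoxia library stood apart in both TPM quantities and not in read depth.

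Pgk1 (ENSMUSG00000062070, chrX:106187100-106203699, plus strand), the kinase of the earlier ATP-forming step, had 3728, 3829 and 3928 TPM in hypoxia-treated cells, against 1367, 1359 and 1362 TPM in normoxic cells. Its log2 fold change was 1.49 ± 0.03 (SE, limma adjusted p = 1.12e-06), and the ratio of means was 2.81. It ranked 22 among all annotated genes in each hypoxia library, against 78 to 84 in normoxia. Pgk1 has 2 processed pseudogenes, Pgk1-rs7 and Gm5537, with 100% identity, and they summed to 364 ± 4.93 TPM in hypoxia and 123 ± 1.75 TPM in normoxia, a ratio of 2.97. The germ cell form Pgk2 was listed at 0 in all libraries.

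Pgam1 (ENSMUSG00000011752, chr19:41911871-41918664, plus strand), the mutase that moves the phosphate of 3-phosphoglycerate, had 1849.8, 1845 and 1874 TPM in hypoxia-treated cells, against 891, 876 and 915 TPM in normoxic cells. The groups did not overlap, and the log2 fold change was 1.05 ± 0.03 (SE, limma adjusted p = 2.26e-06). Its copy Pgam1-ps2, which is 100% identical over the whole open reading frame, had 281, 420.4 and 353 TPM in hypoxia against 99.7, 199 and 206 TPM in normoxia. The muscle form Pgam2 was low, with 2.07 ± 0.53 TPM in hypoxia and 2.66 ± 0.18 TPM in normoxia, and did not pass the test (log2 fold change -0.26, limma adjusted p = 0.205).

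Enolase forms phosphoenolpyruvate. Eno1 (ENSMUSG00000063524, chr4:150236721-150248879, plus strand), the ubiquitous form, had 1554, 1548 and 3309 TPM in hypoxia-treated cells, against 720.4, 677 and 694 TPM in normoxic cells. The groups did not overlap, but the third hypoxia library stood far above the other hypoxia libraries. The log2 fold change was 1.52 ± 0.28 (SE, limma adjusted p = 0.00375), with a 95% confidence interval of 0.85 to 2.19, and without that library it was 1.15 (limma adjusted p = 4.38e-05). The tables also list loci assembled from the reads, and the locus that overlaps Eno1 had 6215, 6346 and 3336 TPM in hypoxia-treated cells, against 2949.6, 2831 and 2896 TPM in normoxic cells. In the third hypoxia library the locus was 1.01 times the gene row, and in the other 5 libraries it was 4.0 to 4.2 times the gene row. Read depth over the gene did not set that library apart, at 465, 458 and 452 per gigabase in hypoxia against 213, 214 and 211 in normoxia. The log2 fold change was 0.81 (limma adjusted p = 0.0236) with assembled loci, 1.12 with assembled loci and without the third hypoxia library, and 1.10 (limma adjusted p = 2.47e-07) by read depth.

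Near-identical copies of Eno1 were also higher in hypoxia-treated cells, and reads may be shared between these rows. Eno1b, which is 99.4% identical to the Eno1 open reading frame, had 299, 287 and 291 TPM in hypoxia-treated cells, against 136, 137 and 135 TPM in normoxic cells, and Gm4735, a processed pseudogene, had 282, 272 and 279 TPM against 129, 133 and 127 TPM. Neither copy set the third hypoxia library apart. Together they had 570 ± 11.3 TPM in hypoxia and 266 ± 4.02 TPM in normoxia, a ratio of 2.14.

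Eno2 (ENSMUSG00000004267, chr6:124760053-124769673, minus strand), the neuronal form, had 38.9, 36.6 and 39.5 TPM in hypoxia-treated cells, against 19.9, 20.5 and 22.8 TPM in normoxic cells. It was the least abundant member, and its log2 fold change was 0.83 ± 0.07 (SE, limma adjusted p = 0.000111). The muscle form Eno3 went the other way, with 71.3 ± 1.78 TPM in hypoxia and 138 ± 18.5 TPM in normoxia (SD, n = 3 each) and a log2 fold change of -0.94 ± 0.10 (SE, limma adjusted p = 0.000288). Eno2 made up 1.98% ± 0.69 of summed Eno1 and Eno2 TPM in hypoxia and 2.94% ± 0.24 in normoxia (exact permutation p = 0.1). This difference of -0.96 percentage points was -0.56 without the third hypoxia library and 0.0812 with assembled loci, where Eno1 takes the values given above. The open reading frames of Eno1 and Eno2 were 76.9% identical over 1233 aligned bases.

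Pkm (ENSMUSG00000032294, chr9:59656368-59679375, plus strand), pyruvate kinase of muscle and of most dividing cells, had 4688, 4709 and 4745 TPM in hypoxia-treated cells, against 2679, 2583 and 2683 TPM in normoxic cells. By annotated gene rows it was the most abundant member in both groups and ranked 11 to 12 among all annotated genes in hypoxia, against 35 to 37 in normoxia. The log2 fold change was 0.83 ± 0.03 (SE, limma adjusted p = 4.09e-06), among the smaller ones of the list. Pkm RNA is spliced into M1 and M2 forms by a choice between mutually exclusive exons, and the gene-level tables do not separate them. Of 6 factors known to act on that choice, Hnrnpa1 was higher (1395 ± 60.0 TPM in hypoxia and 992 ± 39.1 TPM in normoxia, limma adjusted p = 0.000184), as was the mitotic kinase Nek2 (69.3 ± 4.65 and 58.2 ± 2.29 TPM, limma adjusted p = 0.0147). Srsf3 was lower (82.4 ± 3.06 TPM in hypoxia and 195 ± 8.44 TPM in normoxia, limma adjusted p = 7.28e-06), as was Hnrnpa2b1 (581 ± 15.4 and 709 ± 42.1 TPM, limma adjusted p = 0.00288), and Rbm4 and Ptbp1 (log2 fold change 0.21) did not pass the test. With median-ratio scaling Ptbp1 was called higher (0.36).

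**Figure D3:**
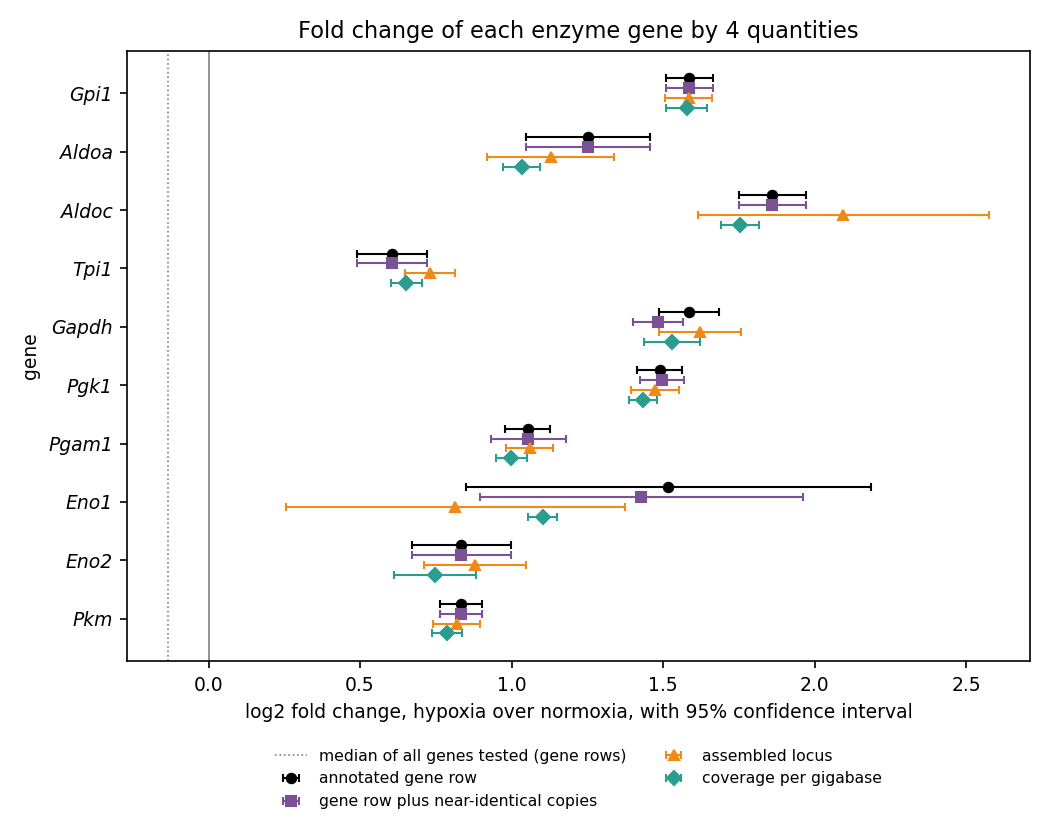
Log2 fold change (hypoxia over normoxia) of each enzyme gene with its 95% confidence interval from limma, by annotated gene row (black circles), gene row plus near-identical copies (squares), assembled locus (triangles) and read depth per gigabase (diamonds). All intervals lie above 0. Those of Eno1 by the TPM quantities and of the assembled Aldoc locus are the widest, and that of Eno1 by read depth is narrow.

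These calls did not depend on the processing that was tried. Under 22 alternative settings, which gave 220 fold changes, each member kept its direction and its call. The assembled Aldoc locus was 296 TPM in the second hypoxia library, where its model runs from 78301529, upstream of the gene, and 176 and 178 TPM in the other hypoxia libraries.

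Levels in TPM ranged between 38.3 ± 1.54 (Eno2) and 4714 ± 28.9 (Pkm) in hypoxia-treated cells and between 21.1 ± 1.49 and 2648 ± 56.7 in normoxic cells (SD, n = 3 each). In hypoxia-treated cells the order of the means was Pkm, Pgk1, Aldoa, Tpi1, Eno1, Pgam1, Gpi1, Gapdh, Aldoc and Eno2. The libraries of Pgk1 and Aldoa overlapped, as did those of Eno1 with Tpi1, Pgam1 and Gpi1. The place of Eno1 rests on the third hypoxia library (3309 TPM). In the first and second hypoxia libraries Eno1 (1554 and 1548 TPM) was below every library of Pgam1 and Gpi1. In normoxic cells the order of the means was Pkm, Tpi1, Aldoa, Pgk1, Pgam1, Eno1, Gpi1, Gapdh, Aldoc and Eno2. There only the libraries of Tpi1 and Aldoa overlapped. This order is that of annotated gene rows alone. The assembled Eno1 locus averaged 5299 TPM in hypoxia and 2892 TPM in normoxia, above the assembled Pkm locus (4628 and 2625 TPM), and Gapdh with its copies (23622 and 8446 TPM) was above both. Gene rows of the 10 members summed to 2.18%, 2.17% and 2.39% of the TPM of annotated genes in hypoxia-treated cells, against 0.999%, 1.02% and 0.990% in normoxic cells. With near-identical copies the sums were 4.74% ± 0.025 in hypoxia and 1.89% ± 0.0062 in normoxia (SD, n = 3 each), a ratio of 2.51. Genes of the mitochondrial chromosome took 5.49% to 5.59% of TPM in hypoxia and 9.25% to 9.29% in normoxia, and without them the gene rows summed to 2.38% ± 0.13 and 1.10% ± 0.014.

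Whether neighbouring steps moved by the same factor was asked from ratios within each library, which no scaling between libraries can move. The largest shift lay between Tpi1 and Gapdh. The log2 ratio of Gapdh to Tpi1 was -1.53 ± 0.084 in hypoxia and -2.51 ± 0.089 in normoxia (SD, n = 3 each). This was a difference of 0.98, and of at least 0.88 under the alternatives. Gapdh here is the gene row alone. With its copies Gapdh (23622 and 8446 TPM) was above Tpi1 (2629 TPM in hypoxia and 1725 TPM in normoxia) in both groups. Tpi1 relative to aldolase was -0.55 ± 0.082 in hypoxia and 0.12 ± 0.15 in normoxia, a difference of -0.67 (-0.44 with assembled loci), so Tpi1 was lower relative to both of its neighbours in each hypoxia library than in any normoxia library. Pgam1 relative to Pgk1 was -1.04 ± 0.029 in hypoxia and -0.61 ± 0.031 in normoxia, a difference of -0.44, and aldolase relative to Gpi1 differed by -0.31. Each of these had no overlap of the groups, and each exact permutation test gave p = 0.1, the smallest possible. Pgk1 relative to Gapdh differed by -0.10, and by 0.0133 with copies added. Enolase relative to Pgam1 (difference 0.45) and Pkm relative to enolase (difference -0.67) depended on the Eno1 quantity: without the third hypoxia library they were 0.099 and -0.32, and with assembled loci -0.25 and 0.0029.

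**Figure D4:**
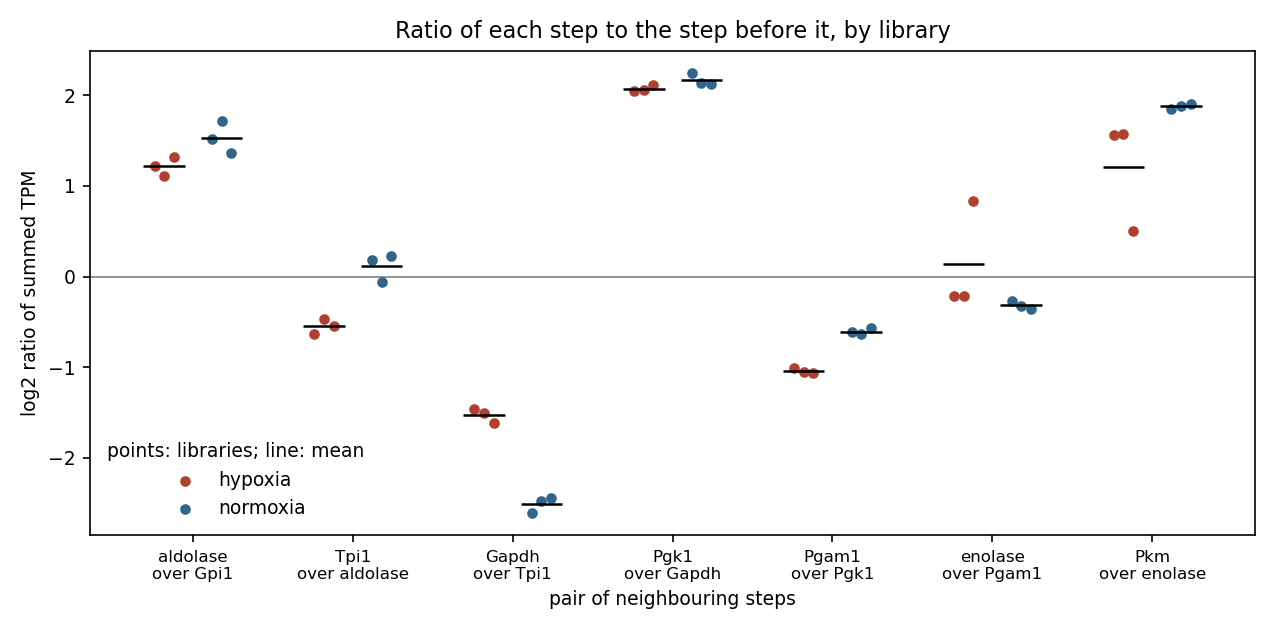
Log2 ratio of the summed TPM of each step to the step before it, in the 3 hypoxia (left, red) and 3 normoxia (right, blue) libraries, with lines at the means. The ratio of Gapdh to Tpi1 was higher in every hypoxia library, the ratios of Tpi1 to aldolase and Pgam1 to Pgk1 were lower, and 1 hypoxia library sets the spread of both enolase ratios.

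Genes before and after the members were mostly higher as well. Of 18 tested genes of the entry and exit of glycolysis 12 were higher and 2 lower, with a median log2 fold change of 0.45. Among all genes tested 17.9% were higher and 36.1% lower. Under the 6 alternatives that rescale all genes, 11 or 12 of the 18 were higher and 2 to 4 lower. The glucose transporter Slc2a1 had 557 ± 36.7 TPM in hypoxia and 129 ± 2.75 TPM in normoxia (SD, n = 3 each), a log2 fold change of 2.10 ± 0.06 (SE, limma adjusted p = 1.504e-06). Hexokinase 2 (Hk2, log2 fold change 1.11), lactate dehydrogenase A (Ldha, 1.08) and the liver form of phosphofructokinase (Pfkl, 0.82) were higher. The lower genes were Ldhb, the other somatic lactate dehydrogenase subunit (2.79 ± 0.36 TPM in hypoxia and 9.19 ± 1.53 TPM in normoxia, log2 fold change -1.42), and Pfkfb4, a bifunctional enzyme of fructose 2,6-bisphosphate (-0.62).

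Routes that branch off the members held more lower than higher genes, beside 36.1% lower and 17.9% higher among all genes tested. In the pentose phosphate pathway, which takes glucose 6-phosphate away before Gpi1, 5 of 8 tested genes were lower and 1 higher, with a median log2 fold change of -0.55. Phosphogluconate dehydrogenase (Pgd) had 111 ± 8.11 TPM in hypoxia and 219.7 ± 10.3 TPM in normoxia (log2 fold change -0.99, limma adjusted p = 4.35e-05), and G6pdx (-0.83), Taldo1 (-0.58) and H6pd (-0.57) were lower too. G6pdx shares 19712 bases with Ikbkg on the other strand. The higher gene was the transketolase Tkt, at 206 ± 11.1 TPM in hypoxia and 184 ± 7.46 TPM in normoxia (log2 fold change 0.16, limma adjusted p = 0.0428), which was not called with FPKM (0.11) or without genes of the mitochondrial chromosome (0.10). Under the 6 alternatives that rescale all genes, 5 or 6 of these 8 genes were lower. Of 12 tested genes listed for branches at or near triose phosphates and phosphoglycerates 7 were lower and 1 higher, with a median of -0.35. Under the same 6 alternatives 6 to 10 were lower (6 after either median-ratio scaling or quantile normalization). Bpgm, which makes 2,3-bisphosphoglycerate, had 11.6 ± 0.81 TPM in hypoxia and 29.2 ± 1.22 TPM in normoxia (log2 fold change -1.26, limma adjusted p = 2.73e-05). Gpd1l (-0.998), Tigar (-0.998) and Phgdh (-0.64), the entry of serine synthesis, were also lower, and the phosphoglycolate phosphatase Pgp was higher (0.57). Gluconeogenesis had 4 tested genes, with Slc37a4 higher (0.56) and Pck2 lower (-0.45). After either median-ratio scaling or quantile normalization 3 of the 4 were higher, Pcx and G6pc3 among them. Pck1, Fbp1, Fbp2 and G6pc were listed at 0 in all libraries.

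**Figure D5:**
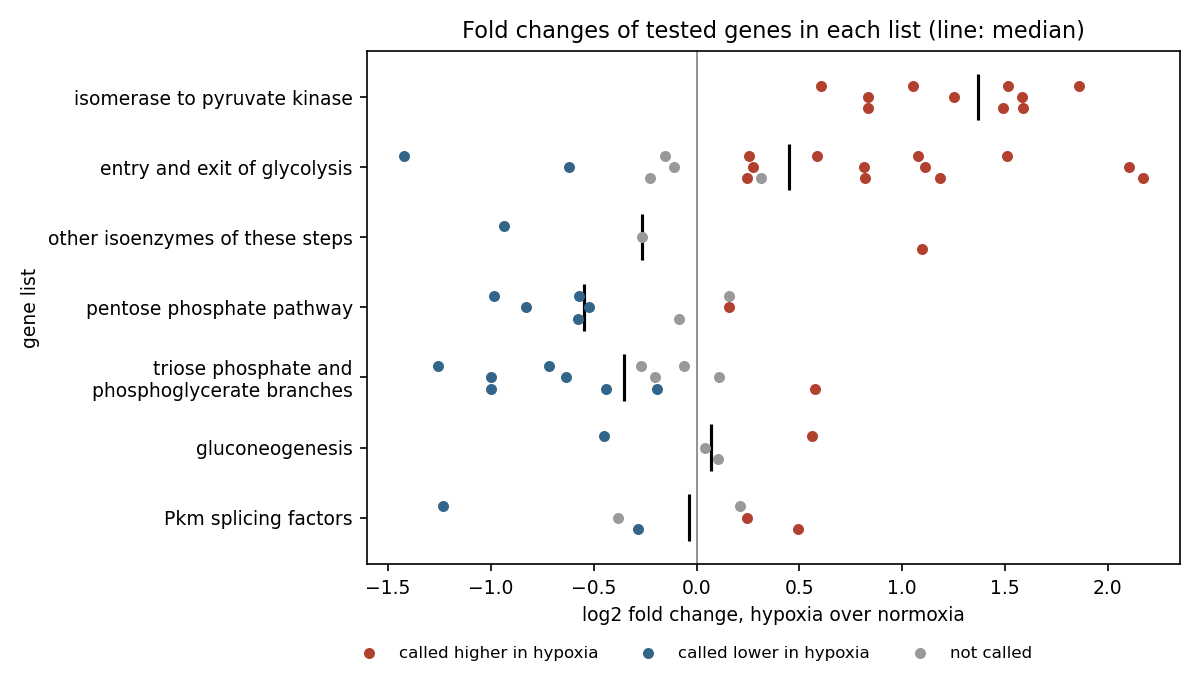
Log2 fold change (hypoxia over normoxia) of each tested gene of 7 lists, one point a gene, coloured by the limma call, with a line at each list's median. The 10 enzymes lie between 0.61 and 1.86, and the pentose phosphate and triose branch lists have medians of -0.55 and -0.35.

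The isoenzymes and transporters listed for germ cells, except Pfkp, were low in both groups. Of 10 listed genes, Aldoart1, Aldoart2, Gapdhs, Pgk2, Eno4, Ldhc, Ldhal6b, Slc2a3 and Slc16a7 had means under 1 TPM over the 6 libraries, and the tested gene was Pfkp, a phosphofructokinase that somatic cells also express (278 ± 67.0 TPM in hypoxia and 59.8 ± 3.79 TPM in normoxia, log2 fold change 2.17, limma adjusted p = 9.50e-05). Pklr, the pyruvate kinase gene of liver and red cells, also had a mean under 1 TPM. Markers did not bear out the germ cell label: 0 of 12 germ cell and 0 of 8 spermatid markers reached a mean of 1 TPM, and 6 and 4 of them, among them Mael, Stra8, Prm2 and Tnp1, were at 0 throughout. Beside the marker counts that follow, 17.9% of all genes tested were higher and 36.1% lower. Of 9 fibroblast and mesenchyme markers 8 were tested, 3 higher (Vim, Col1a1 and Fn1) and 2 lower (Pdgfra and Pdgfrb), with Thy1 at 0. Col1a2, Col3a1 and Acta2 were not called. The list summed to 7906 to 8078 TPM in hypoxia and 4068 to 5078 TPM in normoxia. Vim alone averaged 4053 ± 102 TPM in hypoxia and 1601 ± 507 TPM in normoxia (SD, n = 3 each). The part of these markers in the rise of the enzyme genes was not tested. The markers of macrophages (Ptprc, Adgre1 and Lyz2 at 0) summed to 10.5 to 11.5 TPM in hypoxia and 7.20 to 8.11 TPM in normoxia, and those of endothelium to at most 1.5 and 2.1 TPM. Sertoli markers summed to 47.1 to 59.2 TPM in hypoxia and 44.1 to 55.2 TPM in normoxia, and of 4 tested 2 were higher, Sox9 (13.3 TPM in hypoxia and 6.41 TPM in normoxia, log2 fold change 0.95) and Inha (0.84), and 0 lower. Leydig markers summed to 7.17 to 10.6 TPM in hypoxia and 3.61 to 6.88 TPM in normoxia, and of 2 tested 1 was higher, Insl3.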

How the data were processed

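Poly(A) RNA of 3 hypoxia and 3 normoxia libraries was analysed per gene. The authors filtered paired reads (Cutadapt), aligned these to mm10 (HISAT2) and quantified them with StringTie; versions and the annotation release are not given in the sources used here. The deposited tables give coverage (mean read depth, a signal not scaled for library size), FPKM (scaled for length and depth by the authors) and TPM, for annotated genes and, separately, for loci assembled from the reads. Assembled loci sum to 1e+06 TPM, and annotated rows, which repeat the reference part, to 948284 to 981418 TPM. No counts were among the files used here, so depth is given as aligned bases computed from the deposited coverage, 5.79 to 6.71 gigabases in hypoxia and 5.74 to 6.61 in normoxia, with 13551 to 13596 and 13697 to 13792 genes at 1 TPM or more. The number of libraries limits the precision.

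Of 43432 gene IDs 42462 matched a GENCODE symbol. TPM was summed per symbol, and log2(TPM + 1) of genes averaging at least 1 TPM was tested with limma 3.58.1 (R 4.3.3, variance trend, 2-sided, Benjamini-Hochberg over all genes tested, threshold 0.05). The study tested counts with edgeR, which these values do not allow. Steps were checked on simulated data. Ratios were compared by exact permutation over libraries. Near-identical copies were found with blastn 2.17.0 from each member's longest open reading frame. Coordinates are those of the deposited files, and promoter windows come from RefSeq.

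Members and gene lists were chosen with earlier results of these data known. All members are named. Of other lists up to 4 called genes a direction with the smallest adjusted p are named, and genes under 1 TPM by name; copies, overlapping genes, and genes named as not called were singled out after their values were seen. The alternatives with added copies, read depth, protein-coding genes alone, assembled loci for the sum, and assembled loci without 1 library were chosen after seeing the data. Assembled loci outside the members were not used, and some genes of the lists are not reported here.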

Additional observations from a re-analysis of the deposited data

How the results depend on the processing

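Under all alternatives run, the 10 members stayed higher and called, and the Benjamini-Hochberg adjusted p of limma was at most 0.0236 (Eno1, assembled loci). The median log2 fold change of the members, 1.37, was 1.196 after quantile normalization, 1.09 with assembled loci, 1.07 by read depth per gigabase and 1.09 with assembled loci without the third hypoxia library, and leaving out 1 library gave 1.18 to 1.41, the lowest without the third hypoxia library, whose Eno1 value stands apart. The summed TPM differed by 1.25 percentage points of annotated TPM, by 2.85 with copies added, and by 1.17 to 1.29 when 1 library was left out. Differences that changed sign were the Eno2 share (0.0812), enolase over Pgam1 (-0.25) and Pkm over enolase (0.0029), each with assembled loci, where Eno1 shifts as described above, and Pgk1 over Gapdh (0.0133) with copies added, in all of which the exact permutation p was 1.

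Over all genes, 2463 were higher and 4967 lower. Median-ratio scaling gave 3603 higher and 3622 lower, quantile normalization 3575 and 3639; the split was 2092 and 5619 without genes of the mitochondrial chromosome, and 2749 and 6372 by read depth. Leaving out 1 library gave 2090 to 2284 higher and 4287 to 4798 lower. With the replicate number as a block, 10 members, 2281 higher and 4674 lower genes were called. Deviations of same-numbered libraries from their group means correlated at 0.026, 0.033 and 0.011, and the third hypoxia library correlated best with the first normoxia library, so the numbers were not used as pairs. Without counts, no counting error could be given for low values such as Eno2.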

Other observations

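Genes often used to normalize quantitative PCR included members of the pathway. Of 18 such genes, all tested, 6 were higher, 6 lower and 6 not called in hypoxia-treated cells by limma on log2(TPM + 1), beside 17.9% higher and 36.1% lower among all genes tested, and Gapdh (log2 fold change 1.58) and Pgk1 (1.49) were higher by the most. Other higher genes were Eef2 (3080.0 ± 79.9 TPM in hypoxia and 2254 ± 3.49 TPM in normoxia, log2 fold change 0.45) and Rplp0 (0.33). Gusb was lower by the most (30.6 ± 0.83 TPM in hypoxia and 66.4 ± 5.73 TPM in normoxia, log2 fold change -1.09), with B2m (-0.54) and Actb (-0.30). Under the 6 alternatives that rescale all genes, 5 to 7 of the 18 were higher and 4 to 10 lower.

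Among 11287 protein-coding genes other than the members, 5 followed the mean of the members' log2(TPM + 1) most closely over the 6 libraries: Fez2 (Pearson r = 0.9999), Map2k1 (0.9994), Mxi1 (0.9994), Prrc1 (0.9994) and Ccn2 (0.9992). With 2 groups of libraries that share their treatment, this is a description of a difference between groups and carries no p. Mxi1, a partner of MAX, had 105 ± 7.68 TPM in hypoxia and 48.0 ± 0.24 TPM in normoxia, and Ccn2, a secreted matrix protein, had 164 ± 9.53 and 82.3 ± 1.93 TPM.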
